A study of Homo sapiens with 30 samples.

Results

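Transcription elongation depends on the positive transcription elongation factor P-TEFb, the kinase CDK9 with cyclin T1 (CCNT1) or cyclin T2 (CCNT2), and on the BET proteins, whose bromodomains read acetylated histones. The genes described here are BRD2 and BRD3, CDK9 and both cyclins, and the genes whose products hold P-TEFb inactive, HEXIM1, HEXIM2, LARP7 and MEPCE. They were chosen by symbol, and all 9 were found among the 27348 genes counted in every library; all 9 also passed the filter on low counts. P-TEFb phosphorylates RNA polymerase II and the factors that hold it paused near the start of a gene. A pool of P-TEFb is kept inactive on the noncoding RNA 7SK, which MEPCE caps, LARP7 protects from decay and HEXIM1 or HEXIM2 uses to inhibit CDK9. HEXIM1 takes its name from its induction by hexamethylene bisacetamide, and its transcript is widely used as a marker of response to BET inhibitors.

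The cells were RUES2, an established line of human embryonic stem cells, cultured in TeSR E7 medium with a ROCK inhibitor. CPI-203 is a small molecule that occupies BET bromodomains. At 24 h there were WNT_CPI (Wnt3a at 100 ng/mL with CPI-203 at 1 µM), E7_CPI (CPI-203 alone), WNT (Wnt3a alone) and E7 (medium alone). At 48 h there were WNT_CPI_ACT, WNT_ACT, WNT_E7 and E7_ACT, in which the day 1 treatment named first (Wnt3a with CPI-203, Wnt3a, Wnt3a, or medium alone) was followed on day 2 by Activin A at 10 ng/mL, or by no Activin A in WNT_E7. The labels do not state whether CPI-203 was still present on day 2. Each group had 2 RNA libraries of 1 cell line, and nothing in the labels says that these came from separate cultures, so p-values measure the spread between these libraries only.

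The 16 libraries held 36268324 to 43347733 counts. Levels are given as CPM, counts divided by the library total after scaling with edgeR's TMM factors, and are compared only within a gene, since they are not divided by length. The library labelled E7_CPI replicate 1 stands apart. Its column had Spearman correlations of at most 0.00657 with the other libraries in the gene order of its own table, and of 0.954 to 0.986 in the order of the replicate 2 table, in which it was read. Read so, it differed from E7_CPI replicate 2 by a mean chi-square of 3.53 per gene, above sampling noise but far under the 115 to 192 of the other 7 groups. Its log2 differences had an SD of 0.291 from WNT_CPI replicate 2 and 0.566 from WNT_CPI replicate 1. Deviations of replicate 1 from replicate 2 correlated at 0.513 to 0.922 across genes in the 21 pairs of the other 7 groups, and at -0.167 to -0.056 in the 7 pairs with E7_CPI. Results that use E7_CPI are therefore also given without that library, and WNT_CPI against WNT comes first. All groups share a single estimate of the spread, so that library also bears on the p-values of comparisons without E7_CPI. A gene was called at a Benjamini-Hochberg adjusted p under 0.05 over all genes tested, by edgeR's quasi-likelihood test.

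The pluripotency markers POU5F1 and SOX2 were at 238 to 976 CPM and 155 to 426 CPM over the 16 libraries. The pluripotency list summed to 5568 to 6357 CPM in WNT_CPI and 7556 to 7769 CPM in E7_CPI, against 8634 to 9241 CPM in WNT and 8619 to 9416 CPM in E7, without overlap in either medium. That list held POU5F1, SOX2, LIN28A, DPPA4, SALL4, L1TD1 and PODXL, and TDGF1 was not found. Its highest medians over the 16 libraries were those of PODXL (2848 CPM) and LIN28A (1955 CPM), which weigh most in the sum. Of the fibroblast markers DCN was at 0 in all 16 libraries and LUM was at 0 in 13. COL1A1 was at 41.9 to 312 CPM, COL1A2 at 60.3 to 199 CPM, THY1 at 147 to 813 CPM and POSTN at 0.165 to 5.65 CPM. The fibroblast list summed to 376 to 485 CPM in WNT_CPI, against 466 to 721 CPM in WNT. It summed to 683 to 690 CPM in E7_CPI, against 628 to 890 CPM in E7, so these sums overlapped in both media. The neuroectoderm list (PAX6, SOX1, OTX1, ZIC1, NES) summed to 577 to 762 CPM in WNT_CPI and 698 to 729 CPM in E7_CPI, against 285 to 312 CPM in WNT and 312 to 322 CPM in E7. All 5 of its genes were detected, PAX6 never exceeded 0.384 CPM, and NES, which was at 264 to 759 CPM, made up nearly all of the sum. The 6 trophoblast and amnion genes summed to 1.32 to 1.85 CPM in WNT_CPI and 2.43 to 2.77 CPM in E7_CPI, against 9.77 to 14.5 CPM in WNT and 18.3 to 24 CPM in E7, with CGA at 0 in 8 libraries. The sums other than that of the fibroblast list moved with CPI-203 at 24 h, as the results below do. Their part in those results was not tested. In bulk RNA, fewer cells of a type and less RNA per cell cannot be told apart.

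The sequence before the start of HEXIM1 and of BRD2 is shown because these are the members called higher with CPI-203 at 24 h in both media without the replicate block, and that of CCNT2 because CCNT2-AS1, which is transcribed away from it from a start 215 bases off, is set beside it below. Each is 250 bases, 5′ to 3′ on the plus strand, from RefSeq's table for GRCh38.p14. They lie at chr17:45148225-45148474, chr6:32968344-32968593 (the first of 4 starts listed for BRD2) and chr2:134918572-134918821. Capitals mark, on either strand, the letters TATAAA of the TATA box, those of the CCAAT box, and GCATGCGC, known from sites of the factor NRF1.
HEXIM1: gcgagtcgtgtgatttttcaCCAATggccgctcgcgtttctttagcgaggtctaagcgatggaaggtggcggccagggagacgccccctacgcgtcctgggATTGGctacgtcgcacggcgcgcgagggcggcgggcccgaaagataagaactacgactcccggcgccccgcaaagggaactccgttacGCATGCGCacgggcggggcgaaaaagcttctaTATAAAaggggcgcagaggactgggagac
BRD2: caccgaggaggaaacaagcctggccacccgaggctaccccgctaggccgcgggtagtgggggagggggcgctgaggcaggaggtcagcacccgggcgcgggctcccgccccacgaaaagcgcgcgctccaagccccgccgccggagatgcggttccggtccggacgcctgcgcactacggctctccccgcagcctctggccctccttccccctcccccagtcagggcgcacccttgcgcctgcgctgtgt
CCNT2: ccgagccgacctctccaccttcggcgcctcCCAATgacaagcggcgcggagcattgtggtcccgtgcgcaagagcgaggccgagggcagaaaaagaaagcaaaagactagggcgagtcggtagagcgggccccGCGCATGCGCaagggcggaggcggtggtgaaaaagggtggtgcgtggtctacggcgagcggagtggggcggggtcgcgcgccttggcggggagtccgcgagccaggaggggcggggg

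In HEXIM1 the letters TATAAA began 29 bases before the start, GCATGCGC 61 bases before it, and CCAAT 230 and, on the minus strand, 149 bases before it. In CCNT2, CCAAT began 220 bases before the start, and GCATGCGC, which there overlaps itself on the 2 strands, 115 and 117 bases before it. The BRD2 stretch held none of these 3 motifs. Over the 17 start windows listed for the 9 members, each of 300 bases from 250 before to 50 after the start, TATAAA was found on either strand in that of HEXIM1 only, against 11.5% of all 35116 windows. GCATGCGC was found in windows of HEXIM1, CCNT2 and MEPCE, against 3.05% of all windows, and CCAAT in windows of 6 members, against 34.6%. The other motifs searched on both strands were GGGCGG, found for 8 members against 45.0% of all windows, TGACG, found for 4 against 24.6%, and CACGTG, found for 2 against 7.26%. A member with several starts has several windows, so its share is not that of a single window, and a match describes letters only.

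HEXIM1 rose in every CPI-203 library at 24 h. HEXIM1 (17:45148475-45152099 in GRCh38.p14) was at 295 and 309 CPM in WNT_CPI, against 69.8 and 85.3 CPM in WNT. It was at 277 and 282 CPM in E7_CPI, against 73.2 and 87.5 CPM in E7. The groups did not overlap in either medium, and the lowest CPI-203 library was over 3 times the highest control library. Its log2 fold change was 1.96 (SE 0.153, 95% interval 1.63 to 2.30) in WNT_CPI over WNT, with an adjusted p of 1.13e-05 in edgeR's quasi-likelihood test. In E7_CPI over E7 it was 1.80 (SE 0.152, adjusted p = 2.23e-05 in the same test), and 1.81 (adjusted p = 0.000452) without E7_CPI replicate 1. Of the 17355 genes tested, 563 had a higher log2 fold change than HEXIM1 in WNT_CPI over WNT. The RNA HEXIM2-AS1 overlaps HEXIM1 by 2438 bases and was not counted, and whether the counting used strand is not given in the sources used here.

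BRD2, a BET protein itself and so of the family that CPI-203 binds, rose as well. BRD2 (6:32968594-32981505) was at 659 and 640.1 CPM in WNT_CPI, against 356 and 293 CPM in WNT. It was at 637 and 628 CPM in E7_CPI, against 344 and 281 CPM in E7. All 4 CPI-203 libraries lay above all 4 control libraries. The log2 fold change was 1.00 (SE 0.136, 95% interval 0.70 to 1.30, adjusted p = 0.00035, edgeR) in WNT_CPI over WNT. In E7_CPI over E7 it was 1.02 (adjusted p = 0.000324, edgeR), and 1.01 (adjusted p = 0.00433) without E7_CPI replicate 1. BRD3 (9:134030305-134068548), the other BET gene among the members, was at 101 and 121 CPM in WNT_CPI, against 105 and 128 CPM in WNT. It was at 114 and 112 CPM in E7_CPI, against 107 and 118 CPM in E7. The groups of BRD3 overlapped, and its log2 fold change was -0.06 in WNT_CPI over WNT, with a 95% interval of -0.55 to 0.42 that leaves room for changes in either direction. BRD3 shares 1283 bases with BRD3OS.

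**Figure D1:**
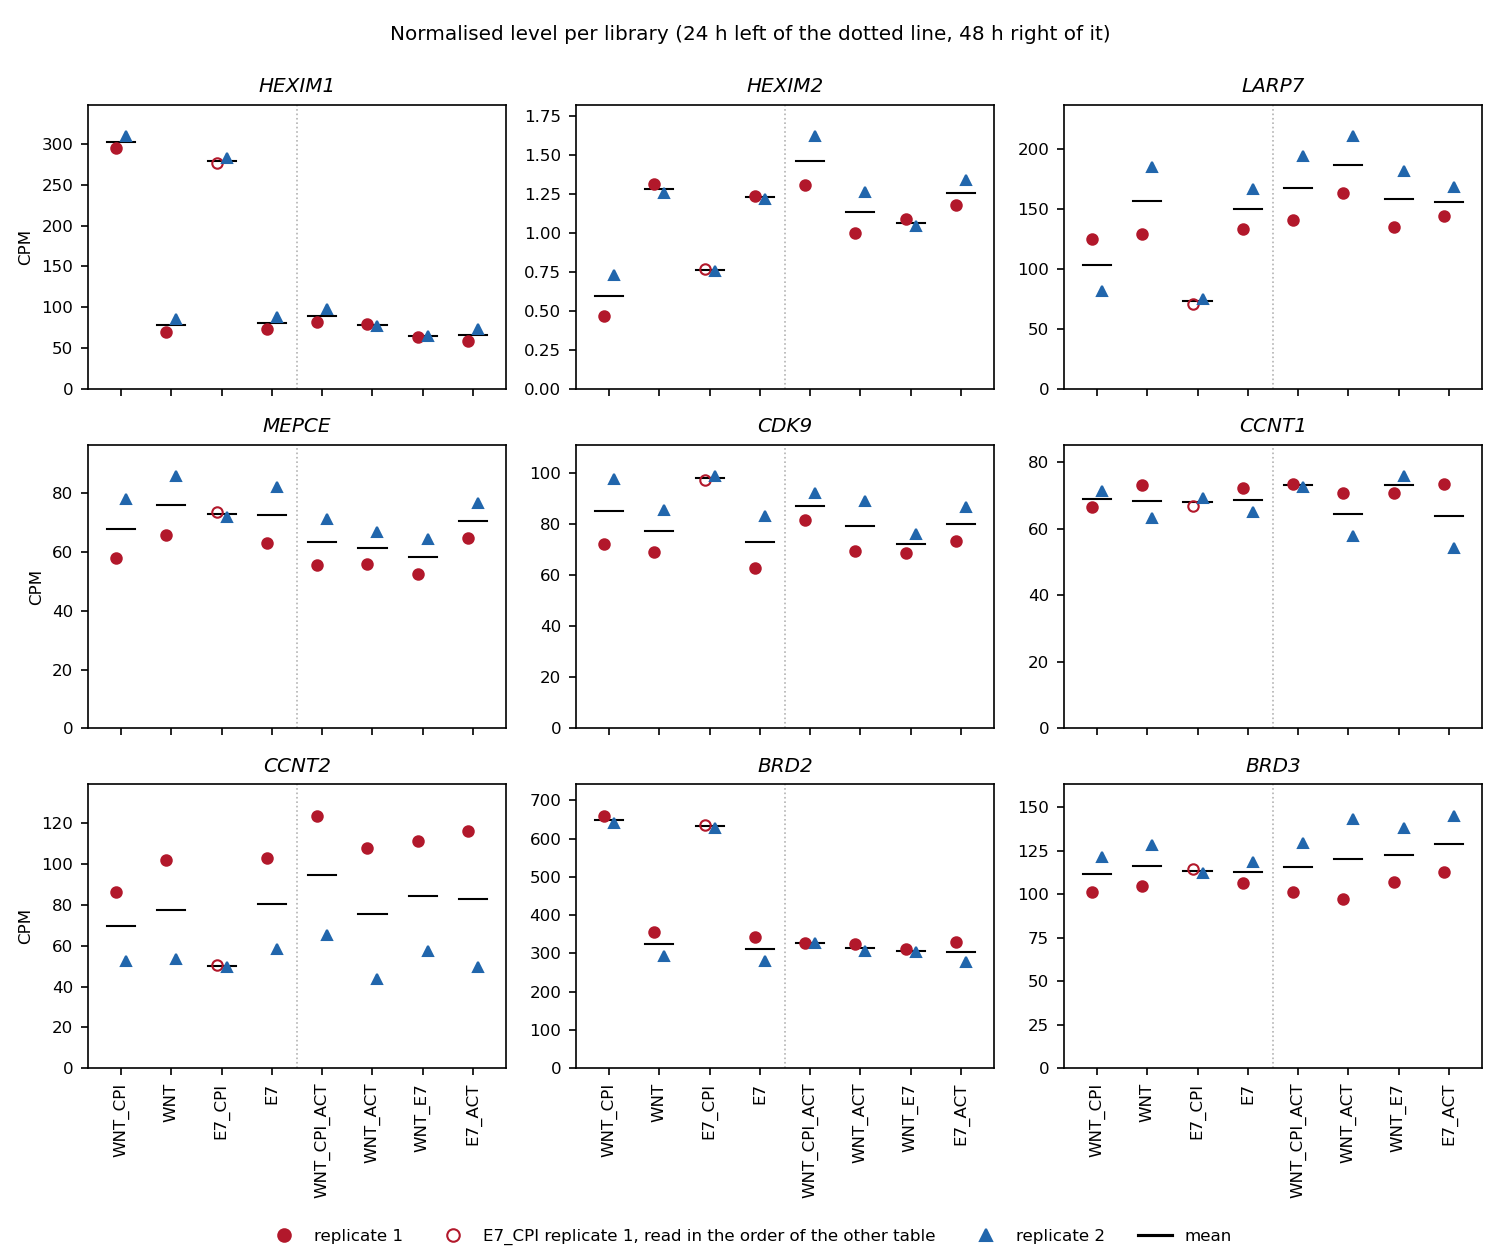
Level of each of the 9 genes in CPM (linear axes from 0), for the 8 groups, with 24 h left of the dotted line and 48 h right of it. Circles are replicate 1, triangles replicate 2, and lines the mean of 2 libraries. HEXIM1 is at 277 to 309 CPM in the 4 CPI-203 libraries of 24 h and at most 97.7 CPM in the other 12, and the open circle is the E7_CPI column read in the order of the other table.

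HEXIM2, the paralogue of HEXIM1 that also inhibits P-TEFb on 7SK, went the other way from a far smaller number of reads. HEXIM2 (17:45160174-45170040) was at 0.465 and 0.730 CPM in WNT_CPI, against 1.31 and 1.26 CPM in WNT. It was at 0.768 and 0.753 CPM in E7_CPI, against 1.24 and 1.22 CPM in E7. All 4 CPI-203 libraries lay under all 4 controls, on raw counts of 19 to 67 over the 16 libraries. HEXIM2 fell by 1.10 on the log2 scale in WNT_CPI over WNT (SE 0.275, 95% interval -1.71 to -0.49, adjusted p = 0.0115, edgeR). Without WNT_CPI replicate 1, WNT_CPI over WNT was -0.81 (adjusted p = 0.0977), and without WNT replicate 1 it was -1.07 (adjusted p = 0.0548), so that call rests on these libraries. Fitted on these groups alone it was -1.11 (adjusted p = 0.101, edgeR). In E7_CPI over E7 its log2 fold change was -0.69 (adjusted p = 0.0757), and with the replicate number as a block -0.69 (adjusted p = 0.0449), or -0.79 (adjusted p = 0.0764) with the block and without E7_CPI replicate 1. HEXIM2 overlaps HEXIM2-AS1 by 1365 bases and HEXIM2-AS2, which had 92 counts over all libraries, by 1236.

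LARP7, which binds the end of 7SK, was at lower levels in all 4 CPI-203 libraries than in all 4 controls, in one of them by little. LARP7 (4:112637143-112657586) was at 124 and 81.1 CPM in WNT_CPI, against 129 and 185 CPM in WNT. It was at 71 and 74.9 CPM in E7_CPI, against 133 and 166 CPM in E7. WNT_CPI replicate 1 was close to its control of the same number, with a log2 ratio of -0.05. The ratio of the replicate 2 libraries was -1.19. For E7_CPI over E7 the ratios were -0.90 and -1.15, the first of them taking E7_CPI replicate 1 as a replicate 1 library. The log2 fold change was -0.61 (SE 0.266, adjusted p = 0.11, edgeR) in WNT_CPI over WNT, and -0.56 (adjusted p = 0.0497) with the replicate block. LARP7 fell by 1.04 in E7_CPI over E7 (SE 0.268, adjusted p = 0.0131, edgeR), and its value was -0.997 (adjusted p = 0.0865) without E7_CPI replicate 1. Leaving out E7 replicate 2 gave -0.86 (adjusted p = 0.081) and leaving out E7_CPI replicate 2 gave -1.07 (adjusted p = 0.0685). With the block and without E7_CPI replicate 1, LARP7 fell by 1.11 (adjusted p = 0.00868). The library in which LARP7 was close to its control is the only CPI-203 library of 24 h that is not close to the replicate 2 profile, so the replicate number and the size of the LARP7 change cannot be told apart.

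An intron of LARP7 holds the miR-302 and miR-367 cluster, whose host RNA MIR302CHG overlaps LARP7 over 3332 bases. MIR302CHG, the source of microRNAs abundant in pluripotent cells, was at 0.465 and 0.316 CPM in WNT_CPI, against 2.74 and 4.09 CPM in WNT. It was at 0.0274 and 0.167 CPM in E7_CPI, against 2.43 and 3.56 CPM in E7. MIR302CHG was thus also lower in WNT_CPI replicate 1, the library in which LARP7 was close to its control. Its log2 fold change in WNT_CPI over WNT was -3.12 (SE 0.58, adjusted p = 0.00233, edgeR). Its counts, 1557 over all 16 libraries, are few beside those of LARP7. The microRNA genes inside LARP7 were counted as well. MIR302D had 1210 counts, MIR302A 917, MIR302C 795, MIR367 402 and MIR302B 42 over the same libraries. Whether reads from this cluster also entered the counts of LARP7 was not tested.

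**Figure D2:**
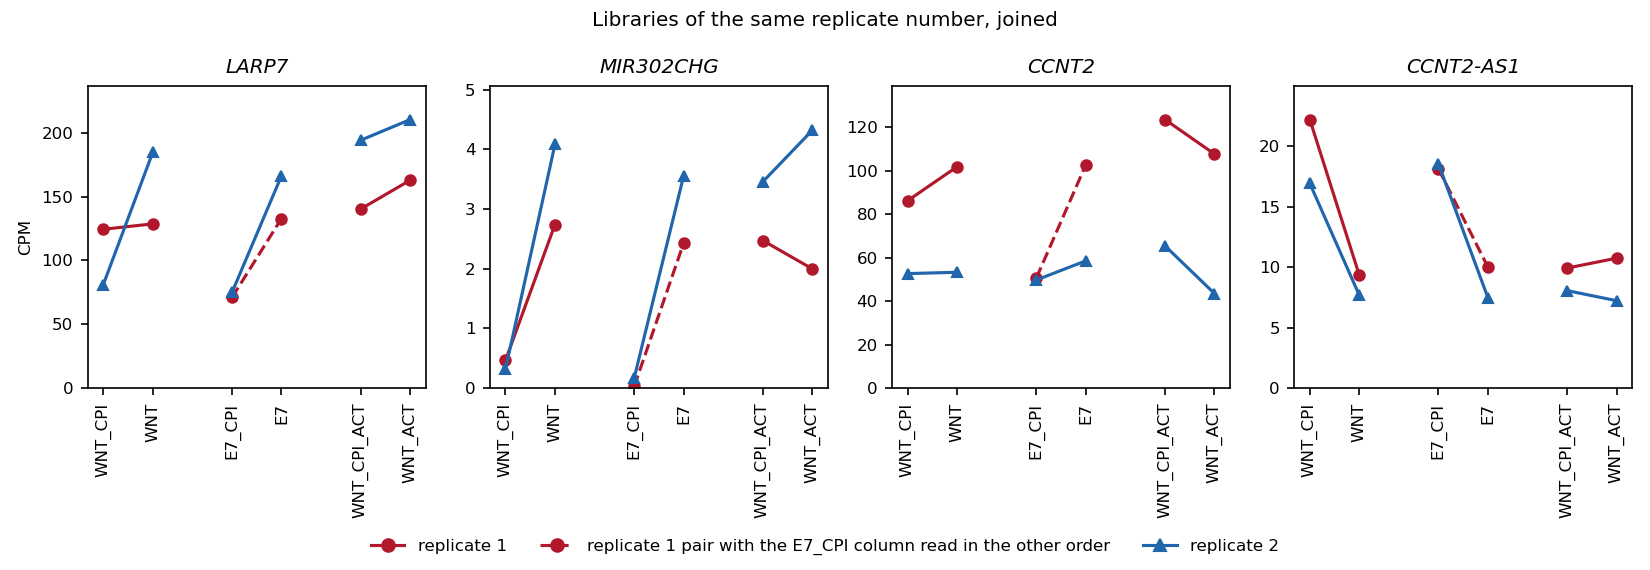
Level in CPM (linear axes from 0) of LARP7, MIR302CHG, CCNT2 and CCNT2-AS1 in CPI-203 libraries, left in each pair, and their controls, with libraries of the same replicate number joined. LARP7 is lower with CPI-203 in the replicate 2 pair of WNT_CPI and WNT (81.1 against 185 CPM) and close to it in the replicate 1 pair (124 against 129 CPM), and the dashed line starts from the E7_CPI column read in the order of the other table.

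MEPCE, the enzyme that caps 7SK, showed no call at 24 h without the block. MEPCE (7:100428790-100434118) was at 57.8 and 77.9 CPM in WNT_CPI, against 65.8 and 85.7 CPM in WNT. It was at 73.6 and 71.9 CPM in E7_CPI, against 63.1 and 81.9 CPM in E7. Its log2 fold change in WNT_CPI over WNT was -0.16, with a 95% interval of -0.63 to 0.31. In the mean of both media, it was -0.17 and called only with the block and without E7_CPI replicate 1 (adjusted p = 0.0325, edgeR), and was -0.08 (adjusted p = 0.711) in the fit of 16 libraries. 7SK itself (RN7SK) had 9 to 68 counts per library, at 0.416 and 0.584 CPM in WNT_CPI against 0.211 and 0.476 CPM in WNT. It was at 1.21 and 1.90 CPM in E7_CPI, against 0.262 and 0.478 CPM in E7. Its log2 fold change there was 2.06 (adjusted p = 0.0454, edgeR), or 2.35 (adjusted p = 0.0805) without E7_CPI replicate 1, and leaving out any of the 4 libraries of this comparison ended the call. In the mean of both media it was 1.31 (adjusted p = 0.0542, edgeR), and 1.35 (adjusted p = 0.00124) with the replicate block. These counts are too few to give its level in the cells.

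Neither the kinase nor its cyclins were called at 24 h without the replicate block. CDK9 (9:127786034-127790792) was at 72.5 and 97.7 CPM in WNT_CPI, against 69.1 and 85.8 CPM in WNT. It was at 97.5 and 98.9 CPM in E7_CPI, against 63 and 83.1 CPM in E7. Each CPI-203 library was above its control of the same number. For E7_CPI over E7 the log2 ratios were 0.63 in replicate 1 and 0.25 in replicate 2. In every group but E7_CPI, CDK9 was lower in replicate 1 than in replicate 2. E7_CPI replicate 1 did not deviate as the other replicate 1 libraries did. The CPI-203 effect and that offset therefore cannot be told apart in the ratio of 0.63. The log2 fold change of CDK9 was 0.14 (95% interval -0.30 to 0.57, adjusted p = 0.66, edgeR) in WNT_CPI over WNT. In E7_CPI over E7 it was 0.43 (adjusted p = 0.124), and with the replicate block 0.44 (adjusted p = 0.00513), or 0.30 (adjusted p = 0.04) with the block and without E7_CPI replicate 1. In the mean of both media, CDK9 was called with the block at 0.29 (adjusted p = 0.00622), or 0.22 (adjusted p = 0.0184) without E7_CPI replicate 1, but not without it at 0.28 (adjusted p = 0.122).

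CCNT1 (12:48688458-48716707) was at 66.5 and 71.5 CPM in WNT_CPI, against 73.2 and 63.4 CPM in WNT. It was at 66.9 and 69.2 CPM in E7_CPI, against 72.2 and 65 CPM in E7. Its CPI-203 libraries lay inside the range of its controls, and the log2 fold change in WNT_CPI over WNT had a 95% interval of -0.33 to 0.36. CCNT2 (2:134918822-134959342) was at 86.3 and 52.7 CPM in WNT_CPI, against 102 and 53.3 CPM in WNT. It was at 50.7 and 49.8 CPM in E7_CPI, against 103 and 58.6 CPM in E7. CCNT2 was higher in replicate 1 than in replicate 2 in each of the other 7 groups, at 86.3 to 124 CPM against 43.5 to 65.5 CPM, whereas E7_CPI replicate 1 was at a level seen in replicate 2. Its log2 fold change in E7_CPI over E7 was -0.68 (95% interval -1.96 to 0.59), with ratios of -1.02 in replicate 1 and -0.23 in replicate 2. CCNT2-AS1, the RNA that faces CCNT2, was at 22.2 and 16.9 CPM in WNT_CPI, against 9.33 and 7.67 CPM in WNT. It rose by 1.20 on the log2 scale (SE 0.278, adjusted p = 0.00791, edgeR), while CCNT2 in the same libraries had a log2 fold change of -0.16 (95% interval -1.43 to 1.11). With the replicate block that of CCNT2 was -0.13 (95% interval -0.63 to 0.37). CCNT2-AS1 was no longer called without WNT_CPI replicate 1, at 0.99, or without WNT replicate 2, at 1.07.

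In counts of calls, 3 of the 9 members were called in WNT_CPI over WNT (HEXIM1 and BRD2 higher, HEXIM2 lower), against 31.0% of all genes tested. With the replicate block it was 4 of 9, with LARP7 added, against 47.4%. In E7_CPI over E7 it was 3 of 9 (HEXIM1 and BRD2 higher, LARP7 lower), against 32.7%. With the replicate block it was 5 of 9, with HEXIM2 lower and CDK9 higher added, against 50.8%. Without E7_CPI replicate 1 it was HEXIM1 and BRD2, 2 of 9 against 17.5%, and with the block and without that library 4 of 9 against 44.0%, with LARP7 lower and CDK9 higher. In the mean of both media 4 of 9 were called (HEXIM1 1.88, BRD2 1.01, HEXIM2 -0.90 and LARP7 -0.82 on the log2 scale), against 47.4% of all genes. Without E7_CPI replicate 1 that was again 4 of 9, against 37.8%, and with the block 5 of 9, against 62.1%. These shares are near those of all genes, so the number of members called is not particular to them. The median log2 fold change of the 9 was -0.03 in the mean of both media, as was that of all genes. The effect of CPI-203 on no member was called as different with and without Wnt3a, against 0.0115% of all genes (2 genes by edgeR, 442 at an unadjusted p under 0.05, and 33 by DESeq2). For HEXIM1 the difference between the effects, with Wnt3a minus without, was 0.16 (95% interval -0.30 to 0.62).

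**Figure D3:**
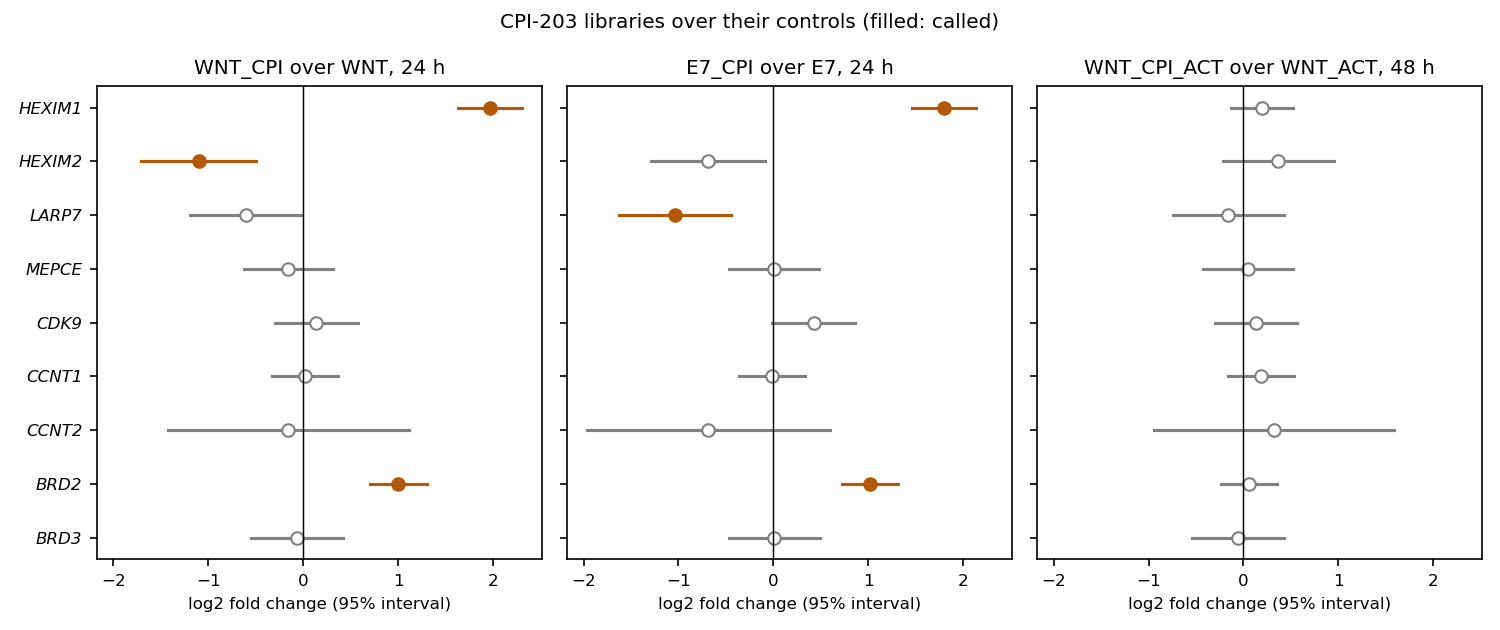
Log2 fold change (point) with its 95% interval (bar) of the 9 genes, from left to right for WNT_CPI over WNT, E7_CPI over E7 and WNT_CPI_ACT over WNT_ACT. Filled points were called by edgeR at an adjusted p under 0.05. HEXIM1 is at 1.96 and 1.80 at 24 h and at 0.19 at 48 h.

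At 48 h, after the day with Activin A, no member was called between cells that had received CPI-203 on day 1 and those that had not. HEXIM1 was at 81.5 and 97.7 CPM in WNT_CPI_ACT, against 79.9 and 76.9 CPM in WNT_ACT. BRD2 was at 328 and 327 CPM in WNT_CPI_ACT, against 325 and 305 CPM in WNT_ACT. HEXIM2 was at 1.31 and 1.62 CPM in WNT_CPI_ACT, against 0.999 and 1.26 CPM in WNT_ACT. The count of 0 of 9 compares with 5.90% of all genes (1024 by edgeR, 3213 at an unadjusted p under 0.05, and 1825 by DESeq2). For HEXIM1 the log2 fold change was 0.19 with a 95% interval of -0.13 to 0.52, and for BRD2 0.06 with an interval of -0.24 to 0.35. For LARP7, at 140.2 and 194 CPM in WNT_CPI_ACT against 163 and 210.3 CPM in WNT_ACT, it was -0.16 with an interval of -0.74 to 0.43. These intervals leave out the sizes seen at 24 h for HEXIM1 and BRD2, and include the -0.61 of LARP7.

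The change between the times was tested directly, as the CPI-203 effect of 48 h (WNT_CPI_ACT over WNT_ACT) minus that of 24 h (WNT_CPI over WNT). By that test 3 of 9 members were called, against 13.3% of all genes. HEXIM1 differed by -1.77 (SE 0.21, 95% interval -2.23 to -1.31, adjusted p = 0.000536, edgeR) and BRD2 by -0.94 (SE 0.19, adjusted p = 0.00891). HEXIM2 differed by 1.47 (SE 0.382, adjusted p = 0.0283), and by 1.47 (adjusted p = 0.052) without E7_CPI replicate 1. That call was also lost without either WNT library, WNT_CPI replicate 1, WNT_ACT replicate 1 or WNT_CPI_ACT replicate 2, the value being lowest without WNT_CPI replicate 1 (1.18, adjusted p = 0.101). For LARP7 the difference was 0.45 (95% interval -0.38 to 1.28). The times also differ in Activin A and possibly in the presence of CPI-203, which cannot be told apart from time.

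In order of mean level over the 8 groups, HEXIM1 was at 302 ± 10 CPM in WNT_CPI and 279 ± 3.96 CPM in E7_CPI (SD, n = 2 in each group here). It was then at 89.6 ± 11.4 CPM in WNT_CPI_ACT, 80.3 ± 10.2 CPM in E7, 78.4 ± 2.1 CPM in WNT_ACT, 77.5 ± 11 CPM in WNT, 65.9 ± 9.87 CPM in E7_ACT and 64 ± 0.682 CPM in WNT_E7. From WNT_CPI_ACT downwards the libraries of each pair of neighbours in this order overlapped. Those of WNT_CPI and E7_CPI did not, and that difference was not tested. For BRD2 the order began with 649.7 ± 13.6 CPM in WNT_CPI and 633 ± 5.96 CPM in E7_CPI, and the other 6 groups lay between 304 ± 36.7 CPM in E7_ACT and 328 ± 0.377 CPM in WNT_CPI_ACT. LARP7 was lowest in those groups, at 73 ± 2.76 CPM in E7_CPI and 103 ± 30.6 CPM in WNT_CPI, and highest in WNT_ACT at 187 ± 33.6 CPM. Across genes the libraries of E7_CPI were far closer to each other than those of any other group, so its SDs may understate its spread.

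Neither Wnt3a nor Activin A called any member. In WNT over E7, 0 of 9 were called, against 0.605% of all genes, and HEXIM1 had a log2 fold change of -0.05 (95% interval -0.38 to 0.27). In WNT_ACT over WNT_E7, 0 of 9 were called, against 0.882%; HEXIM1, at 79.9 and 76.9 CPM in WNT_ACT against 63.5 and 64.5 CPM in WNT_E7, had a log2 fold change of 0.29 (95% interval -0.03 to 0.62, adjusted p = 0.585, edgeR). In WNT_ACT over E7_ACT, 0 of 9 were called, against 3.84%, and HEXIM1 had 0.25 (95% interval -0.07 to 0.58). At an unadjusted p under 0.05, 1064, 1747 and 2312 of all genes passed in these 3 comparisons by edgeR, and DESeq2 called 303, 694 and 1126. WNT_ACT stands in both of the last 2 comparisons.

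The ratio of HEXIM1 to CDK9 transcripts, an inhibitor to its target, was higher in CPI-203 cells at 24 h. WNT_CPI had 4.07 and 3.17 HEXIM1 counts per CDK9 count, against 1.01 and 0.994 in WNT. E7_CPI had 2.84 and 2.85, against 1.16 and 1.05 in E7. WNT_CPI_ACT had 0.996 and 1.06, against 1.15 and 0.863 in WNT_ACT. These ratios are not corrected for gene length, so only their differences between groups are of use. They were higher in every CPI-203 library at 24 h and overlapped their controls at 48 h.

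Other genes of the elongation machinery were read as lists, in the mean of both media, where 47.4% of all genes were called and the median of all was -0.03. Of the 10 genes of the super elongation complex, which brings P-TEFb to genes, 3 rose and none fell, with a median log2 fold change of 0.06. MLLT3, a subunit that reads acylated histones, rose by 1.69 (adjusted p = 4.69e-05, edgeR). It was at 28.8 and 26.6 CPM in WNT_CPI, against 9.82 and 7.08 CPM in WNT, and at 16.7 and 13.8 CPM in WNT_CPI_ACT, against 8.30 and 5.53 CPM in WNT_ACT. Its difference at 48 h was called, with a log2 fold change of 1.14 (adjusted p = 0.036, edgeR), when that of HEXIM1 was not. The call of MLLT3 held in 8 of 13 alternatives. It was lost with only the groups compared, without E7_CPI replicate 1 (adjusted p = 0.0648), without WNT_ACT replicate 2 (0.88 on the log2 scale) and without either WNT_CPI_ACT library. Its change between the times was -0.57 (95% interval -1.41 to 0.27).

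ELL2, another subunit of that complex and an elongation factor, was chosen after its values were seen. ELL2 was at 72.9 and 71.4 CPM in WNT_CPI, against 32.2 and 30.1 CPM in WNT. It was at 37.5 and 19.5 CPM in WNT_CPI_ACT, against 138 and 58 CPM in WNT_ACT. It was higher with CPI-203 at 24 h and, against WNT_ACT, lower at 48 h, with no overlap at either time. In the remaining 48 h groups ELL2 was at 31.1 and 29.2 CPM (E7_ACT) and at 28.2 and 35.3 CPM (WNT_E7). The WNT_CPI_ACT libraries lay on both sides of these values, and both WNT_ACT libraries lay above all of them. The log2 fold change was 1.21 (adjusted p = 0.0268, edgeR) at 24 h and -1.78 (adjusted p = 0.0198) at 48 h, a difference between times of -3.00 (SE 0.516, adjusted p = 0.00405). The call at 24 h was lost without any one of the 4 libraries compared, and that at 48 h without WNT_ACT replicate 1 (-1.03), without WNT_CPI_ACT replicate 2 (-1.39) or with only the groups compared. The difference between times was called in 16 of 17 alternatives, and was -2.97 (adjusted p = 0.0518) with only the groups compared.

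Of the pausing factors NELF and DSIF, 5 of 6 were tested, and SUPT5H rose by 0.39 (adjusted p = 0.00113, edgeR) while 2 fell, NELFA by 0.59 (adjusted p = 0.0025). Of 10 genes of the PAF complex and elongation chaperones 4 rose and 1 fell, the median being 0.22. CTR9, a PAF subunit, rose by 1.12 (adjusted p = 0.00358). Of 9 other kinases of the polymerase tail and Mediator with their cyclins 2 rose and 1 fell, the median being 0.11, with CCNC, the Mediator cyclin, up by 0.66 (adjusted p = 7.27e-05) and CDK7, of TFIIH, down by 0.28 (adjusted p = 0.0338). Of 9 proteins that bind 7SK or release P-TEFb from it 2 rose and none fell, the median being -0.05, with JMJD6, which acts with BET proteins in that release, up by 0.44 (adjusted p = 0.0153). The call of CDK7 held in 6 of 16 alternatives, being lost without any one of the 8 libraries compared, with DESeq2 size factors and with no filter on low counts. That of JMJD6 held in 13 of 16, being lost without E7 replicate 1, WNT replicate 1 or WNT_CPI replicate 2. Over the 5 lists 16 of 43 genes were called, 12 higher and 4 lower, against 47.4% of all genes (3751 higher and 4479 lower). Without E7_CPI replicate 1 it was 13, against 37.8% of all genes, and with the replicate block 24, with 17 higher and 7 lower, against 62.1%.

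**Figure D4:**
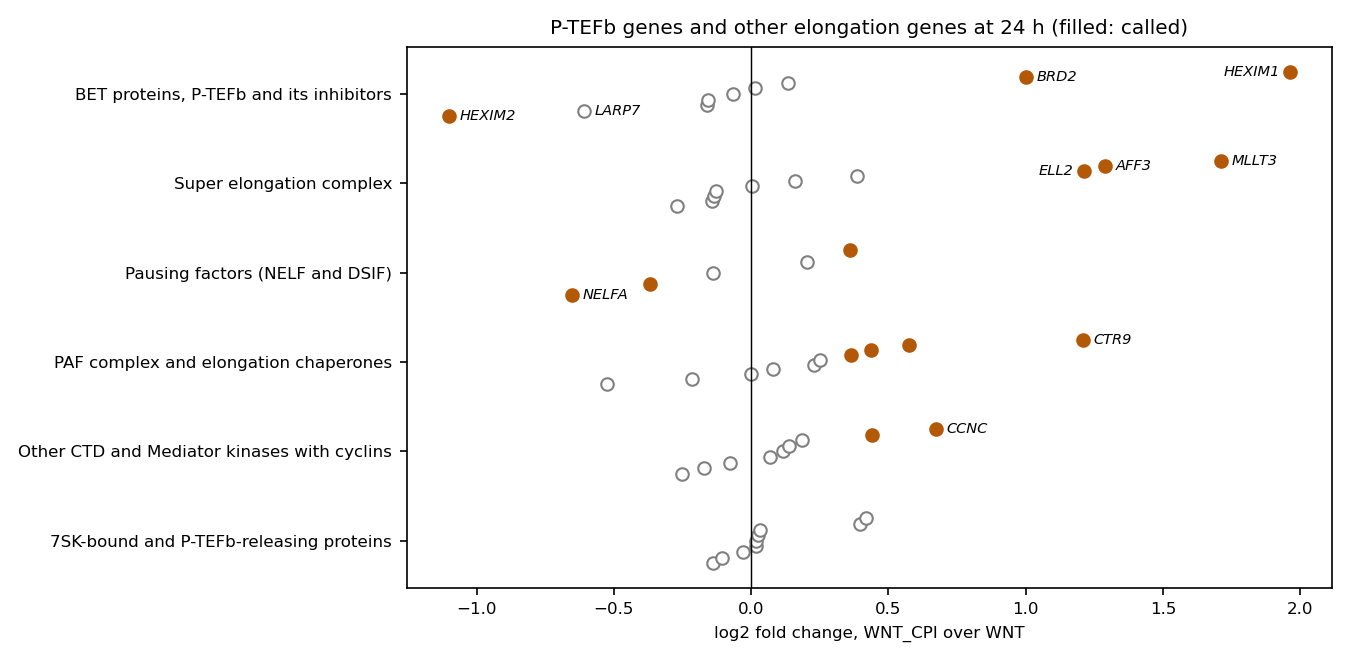
Log2 fold change in WNT_CPI over WNT of the 9 members and of the 5 lists of other elongation genes, 1 point per gene, filled where edgeR called it. HEXIM1 at 1.96 is the highest of all points shown, MLLT3 follows at 1.71, HEXIM2 at -1.10 is the lowest, and genes at or past 0.6 in either direction are named.

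Among the genes most like HEXIM1 over the 16 libraries, by Pearson correlation of log2 CPM, were GBF1 (0.992), NUDT8, TULP3 and H2BC11 (0.989). Those most like BRD2 were LINC00910 (0.992), INPP4A, H2BC8, H3C14 and ERCC6 (0.980). Among them NUDT8, H2BC11, LINC00910, H2BC8 and H3C14 had log2 fold changes of 4.53, 4.24, 4.32, 4.16 and 4.91 in WNT_CPI over WNT, above the 1.96 of HEXIM1. At 48 h, in WNT_CPI_ACT over WNT_ACT, those of the 4 genes named as like HEXIM1 were 0.07 to 0.24. Those of the genes like BRD2 were 1.28 for H3C14, 0.73 for H2BC8, 0.33 for ERCC6, 0.19 for LINC00910 and 0.02 for INPP4A. HEXIM1 and BRD2 correlated with each other at 0.950. These correlations describe libraries that share the same treatment groups.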

How the data were processed

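RNA from 16 libraries was deposited by the authors as raw counts per gene, in a table for each replicate number. The submitters' processing notes name featureCounts, DESeq2, Bowtie2, MACS2 and deepTools without versions, and list hg38, hg19, GRCh38 and GRCh37 without roles; the RNA aligner is not given in the sources used here. The E7_CPI column of the replicate 1 table was read in the gene order of the other table; its last 12 cells were empty. Genes were matched by identifier, and 27322 of 27348 had a RefSeq symbol. Positions and promoter sequences are from RefSeq (GRCh38.p14).

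The tests were those of edgeR 4.0.16 (R 4.3.3): filterByExpr by group (17355 genes kept), TMM factors of 0.948 to 1.05, and 2-sided quasi-likelihood tests in a single model of 8 groups with 8 residual degrees of freedom and no replicate term, in 9 comparisons. Within each comparison p-values were Benjamini-Hochberg adjusted over every gene tested. SE is the absolute log2 fold change over the square root of the F statistic. Any adjusted p stated is from edgeR unless another tool is named. DESeq2 1.42.0 was an alternative. Without E7_CPI replicate 1, 15 libraries and 17793 genes were fitted. A lone library left in a group was assumed to vary like the other groups. The script was tested on simulated data.

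The replicate numbers were taken to pair the libraries of the 7 groups other than E7_CPI, since deviations correlated at 0.513 to 0.922 in all 21 of their pairs. The replicate block nevertheless takes E7_CPI replicate 1 as a replicate 1 library wherever that library is in the fit. Blocked values are printed where they change the call of a member or of a value given here. The members, lists and motifs were chosen with earlier results of these data known. Named were all 9 members, the called gene of each list with the largest change in each direction in the mean of both media, the 5 genes most like HEXIM1 and BRD2, and neighbouring genes. Some genes that this rule picks are not reported here. The deposited ATAC positions, a list for the whole series without values, were not used, since the sources used here do not give their genome build: 13.0% of GRCh38 start windows held one, against 10.1% of the same windows moved by 100000 bases.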

Additional observations from a re-analysis of the deposited data

Results flagged for a closer look

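The CPI-203 effect differed between 48 h and 24 h in a direct test for 3 members (effect in WNT_CPI_ACT over WNT_ACT minus that in WNT_CPI over WNT). The difference was -1.77 on the log2 scale for HEXIM1, -0.94 for BRD2 and 1.47 for HEXIM2. HEXIM1 and BRD2 held without E7_CPI replicate 1 (adjusted p = 0.00197 and 0.0194, edgeR). HEXIM2, on its 19 to 67 counts per library, was called under 10 of 17 alternatives, with adjusted p of 0.00931 to 0.146. Activin A was given to both 48 h groups and to neither 24 h group, so the day and the Activin A cannot be told apart.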

How the results depend on the processing

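HEXIM1 and BRD2 at 24 h kept their direction and call in each of the 16 alternatives of the mean comparison, at 1.81 to 1.96 and 0.93 to 1.09, and in all those of WNT_CPI over WNT (13) and E7_CPI over E7 (12). In the change between times HEXIM1 was called in 17 of 17 and BRD2 in 16; using only the groups compared, BRD2 was at -0.92 (adjusted p = 0.0586, edgeR), which leaves fewer libraries in the fit. The members called in E7_CPI over E7 were 5 with the replicate block, against 50.8% of all genes, and in the change between times 1 with only the groups compared, against 886 of all genes. Leaving out 1 library at a time, they were 4 in the mean, 2 to 3 in WNT_CPI over WNT, E7_CPI over E7 and the change, and 0 in the other comparisons. No called value reversed.

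Counts over all genes moved more. With the block they were 8816 (E7_CPI over E7), 8227 (WNT_CPI over WNT), 22 (interaction), 2619 (WNT_CPI_ACT over WNT_ACT), 4661 (change), 299 (WNT over E7), 773 (WNT_ACT over WNT_E7) and 1509 (WNT_ACT over E7_ACT). With the block and without E7_CPI replicate 1, from WNT_CPI over WNT on in that order, they were 9417, 7, 3590, 5923, 414, 1130 and 2024. With DESeq2 they were 33 (interaction), 1825 (WNT_CPI_ACT over WNT_ACT), 303 (WNT over E7), 694 (WNT_ACT over WNT_E7) and 1126 (WNT_ACT over E7_ACT). With only the groups compared they were 3352 (WNT_CPI over WNT), 886 (change), 6 (WNT over E7), and 0 in the interaction, WNT_CPI_ACT over WNT_ACT, WNT_ACT over WNT_E7 and WNT_ACT over E7_ACT. Leaving out 1 library they were 6727 to 7489 (mean), 3121 to 4094 (E7_CPI over E7), 3544 to 4722 (WNT_CPI over WNT), 0 to 2 (interaction), 308 to 767 (WNT_CPI_ACT over WNT_ACT), 1415 to 1990 (change), 16 to 76 (WNT over E7), 0 to 237 (WNT_ACT over WNT_E7) and 83 to 557 (WNT_ACT over E7_ACT). The cause of these moves was not tested.

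HEXIM2 rests on few counts, and E7_CPI may hold less independent information than its 2 libraries imply. Fits with the block and those without E7_CPI replicate 1 were combined after seeing the data, as were the ratios within a replicate. ATAC positions at the starts were not run, since their build is not given in the sources used here. ELL2 was added to these alternatives after seeing the data.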

Other observations

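Neighbours of the members that the comparisons left out gave these values at 24 h and 48 h. CCNT2-AS1 was at 9.92 and 8.05 CPM in WNT_CPI_ACT, against 10.7 and 7.22 CPM in WNT_ACT, with a log2 fold change of 0.00 (95% interval -0.61 to 0.61), after its rise at 24 h. The effect at 48 h minus that at 24 h was -1.20 (adjusted p = 0.069, edgeR), and -1.18 (adjusted p = 0.00264) with the replicate block. MIR302CHG was at 2.47 and 3.46 CPM in WNT_CPI_ACT, against 2.00 and 4.32 CPM in WNT_ACT, and its CPI-203 effect at 48 h minus that at 24 h was 3.02 (adjusted p = 0.0252, edgeR). That call held in 11 of 17 alternatives, with adjusted p of up to 0.101. It was lost with only the groups compared and without WNT_CPI replicate 1 or 2, WNT replicate 2, WNT_ACT replicate 1 or WNT_CPI_ACT replicate 2. BRD3OS, which overlaps BRD3, was at 16.8 and 23.2 CPM in WNT_CPI, against 15.9 and 17.7 CPM in WNT, with a log2 fold change of 0.25 (95% interval -0.37 to 0.88). The change was 0.55 in E7_CPI over E7 (adjusted p = 0.161, edgeR), and 0.57 (adjusted p = 0.01) with the replicate block. That block takes E7_CPI replicate 1 as a replicate 1 library, and the call was lost with the block and without that library. In the mean of both media the change of BRD3OS was 0.40, called with the block (adjusted p = 0.00754) and not without it (adjusted p = 0.121). With the block and without E7_CPI replicate 1 it was 0.28. PPP1R35, a neighbour of MEPCE, was at 12.4 and 16.1 CPM in WNT_CPI, against 13.3 and 17 CPM in WNT. At 48 h it was at 11 and 14.3 CPM in WNT_CPI_ACT, against 14.7 and 23.4 CPM in WNT_ACT, with a log2 fold change of -0.59 (adjusted p = 0.336, edgeR), and -0.57 (adjusted p = 0.0282) with the replicate block. ZCWPW1, the other neighbour of MEPCE that was read, was at 1.76 and 1.39 CPM in WNT_CPI, against 2.98 and 1.96 CPM in WNT, with a log2 fold change of -0.65 (adjusted p = 0.147, edgeR), and -0.64 (adjusted p = 0.031) with the replicate block. The change was -0.71 in E7_CPI over E7 (adjusted p = 0.112, edgeR), and -0.68 (adjusted p = 0.023) with the block. That call was lost with the block and without E7_CPI replicate 1. In the mean of both media ZCWPW1 fell by 0.68 (adjusted p = 0.0275, edgeR), and its value was -0.66 (adjusted p = 0.0806) without E7_CPI replicate 1. At 48 h it was at 2.04 and 1.74 CPM in WNT_CPI_ACT, against 2.23 and 1.69 CPM in WNT_ACT.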
